A study of Mus musculus with 4 samples.

Results

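The genes of glycolysis and the pentose phosphate pathway were followed in mouse plasmacytoid dendritic cells (pDCs), the dendritic cells known for making type I interferon in response to nucleic acids. The set held 35 genes chosen by symbol from their known roles, with earlier results of these data known, among 27179 genes of the count table. All 35 were found, and 34 passed the filter on low counts; Eno2, the neuronal enolase, had at most 3 counts in a library and was not tested. The pDCs came from C57BL/6 bone marrow precursors that had spent 8 days with Flt3 ligand, and every culture had received imiquimod (IMQ), a small-molecule TLR7 ligand, at 1 µg/ml for 24 h. They were sorted with SiglecH and CD11b, and a reporter for the chemokine gene Cxcl10, read as blue fluorescence (BFP), split them: 2 RNA-seq libraries were BFP-positive and 2 were BFP-negative. One label field calls the BFP-negative cells positive for CXCL10 and the series text calls them negative, so the groups follow BFP in the sample titles. No unstimulated library was analysed here, so all values compare stimulated cells with stimulated cells. Nothing in the labels says that the 2 libraries of a group came from separate animals, so p-values measure the spread between these libraries, which may be technical.

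Glycolysis converts glucose to pyruvate with a net gain of ATP, and lactate dehydrogenase and the monocarboxylate transporters let cells dispose of or take up the lactate made from it. The pentose phosphate pathway branches off at glucose 6-phosphate, where its oxidative part yields NADPH and its non-oxidative part, run by transketolase and transaldolase, links pentoses back to glycolysis. Dendritic cells stimulated through Toll-like receptors are known to raise glycolytic flux, and Hif1a is a transcription factor that induces many of these genes.

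The genes that passed the test were 3 transporter genes, 1 regulator and 2 enzymes, and 28 of the tested genes did not pass. In BFP-positive cells Slc2a3, Pfkfb3, Slc16a3 and Taldo1 were higher, and Tpi1 and Slc16a1 were lower. These are 4 and 2 of 34 tested members, whereas over all 11706 genes tested 7.60% were higher and 3.51% lower. The fit had no block for the replicate number, since the labels do not say whether same-numbered libraries are paired. With such a block 6 members were lower, Aldoa, Ldha, Pkm and Tkt being added, and 760 of all genes, against 411 without it. Without the block, the share of members called in either direction was 17.6%, beside 11.1% of all genes tested. The members were chosen with earlier results of these data known, so these shares describe the set and do not test it. The median log2 fold change was -0.04 over the members and -0.02 over all tested genes, with 14 members above 0 and 20 below; without BFP-positive replicate 2 the members' median was -0.23. The libraries of the groups did not overlap for 17 of the 34 members (50%), beside 54.2% of all genes tested. Together the members took 0.708% and 0.808% of the counts of BFP-negative replicates 1 and 2, and 0.655% and 0.705% of those of BFP-positive replicates 1 and 2. Ldha, Aldoa and Taldo1 alone gave 57.2% to 59.7% of the members' counts. Calls come from the quasi-likelihood test of edgeR, adjusted across the 11706 genes by Benjamini-Hochberg, with 0.05 as the threshold on adjusted p. Levels are given in CPM, counts scaled to library size with TMM factors. A log2 fold change above 0 means more in BFP-positive cells and carries its standard error (SE).

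**Figure D1:**
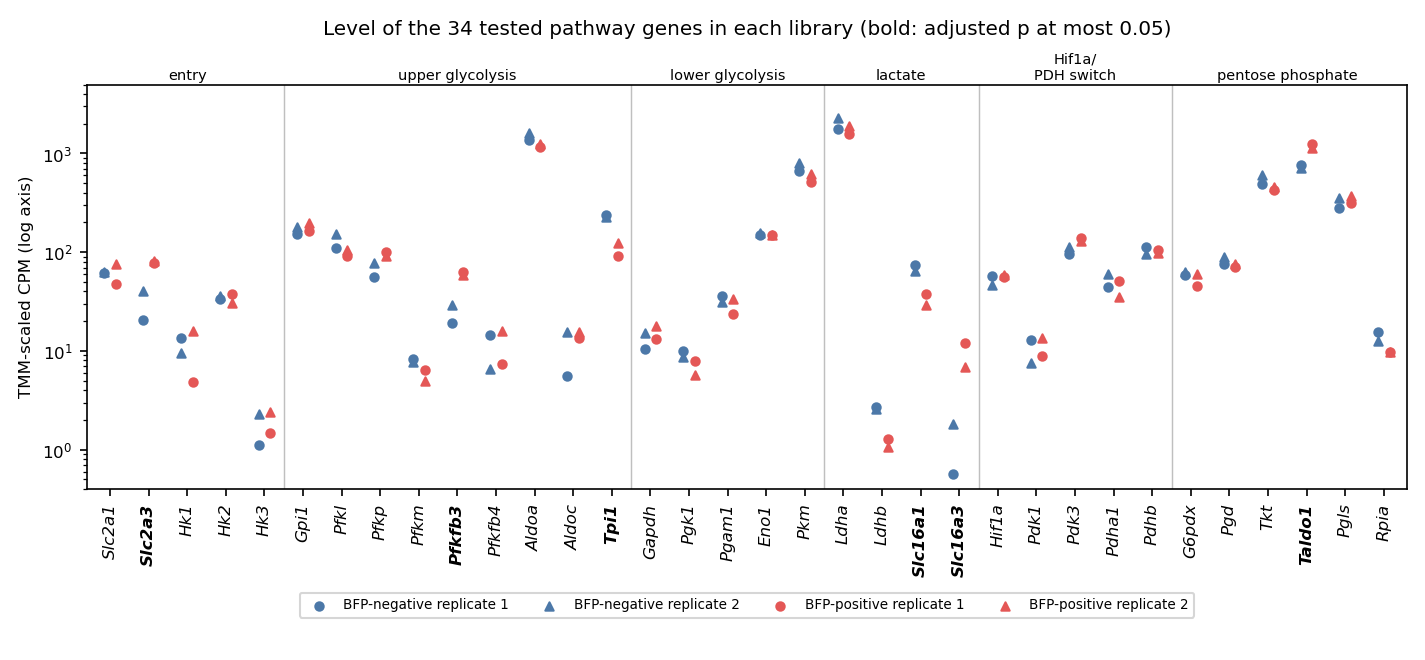
Level of each of the 34 tested pathway genes in TMM-scaled CPM on a log axis, ordered by role, with 1 point per library (blue, BFP-negative; red, BFP-positive; circles, replicate 1; triangles, replicate 2). Both red points of Slc2a3, Pfkfb3, Slc16a3 and Taldo1 lie above both blue ones, and those of Tpi1 and Slc16a1 below. Levels of different genes are not corrected for length here.

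Library totals ran from 11868254 to 12570117 counts, and a gene with no count could still be present at up to 0.237 to 0.257 CPM (3 counts, counting error only). Cxcl10, the gene whose reporter defined the sort, was at 0.241 and 1.498 CPM in BFP-negative and 12.8 and 12.7 CPM in BFP-positive libraries. Of 10 pDC markers, 1 was higher (Siglech) and 4 were lower in BFP-positive cells, with summed levels of 20890 to 24940 CPM in BFP-negative and 15960 to 16970 CPM in BFP-positive libraries. Ly6d gave 78.8% to 84.0% of these sums, and without it they were 3599 and 3990 CPM in BFP-negative and 3353 and 3387 CPM in BFP-positive libraries. Of 10 monocyte and macrophage markers, 6 were higher and 1 lower, with summed levels of 629.8 to 760.3 and 1385 to 1534 CPM; Mertk had no count in any library. These sums consist largely of Ly6c2 and Cd68, and less abundant markers of the list differed more: Csf1r had 3 and 0 counts in BFP-negative and 265 and 398 in BFP-positive libraries, Fcgr1 had 3 and 14 against 198 and 370, and Lyz2 had 20 and 23 against 202 and 464. The marker called lower, Adgre1, went the other way, with 309 and 450 counts in BFP-negative and 78 and 124 in BFP-positive libraries. Of 10 conventional dendritic cell markers, 2 were higher, with sums of 618.9 to 637.4 and 790.9 to 793.3 CPM, and of 6 B cell markers 2 were lower, with sums of 120.9 to 122.6 and 94.75 to 99.6 CPM, of which Cd79b gave 74.5% to 97.1%. The part of these marker shifts in the results for the pathway genes was not tested. In sorted bulk samples, fewer cells that express a gene and less RNA of it per cell cannot be told apart.

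The sequences before the start sites are shown for the 2 monocarboxylate transporter genes, which moved in opposite directions, and for Pfkfb3, which has 2 listed starts. They are the 250 bases before the start on GRCm38.p6 as RefSeq gives them, 5′ to 3′ on the gene's strand. Capitals mark ACGTG or GCGTG, the core letters of the hypoxia response element that Hif1a binds, or CACGTG, the E-box, on either strand; an E-box also contains the ACGTG core on both strands.
Slc16a3, chr11:120948817-120949066, strand +: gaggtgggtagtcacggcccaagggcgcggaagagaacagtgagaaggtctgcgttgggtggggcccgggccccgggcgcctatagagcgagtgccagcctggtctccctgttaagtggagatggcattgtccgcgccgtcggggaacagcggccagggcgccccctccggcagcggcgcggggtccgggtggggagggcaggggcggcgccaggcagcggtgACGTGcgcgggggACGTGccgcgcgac
Slc16a1, chr3:104638414-104638663, strand +: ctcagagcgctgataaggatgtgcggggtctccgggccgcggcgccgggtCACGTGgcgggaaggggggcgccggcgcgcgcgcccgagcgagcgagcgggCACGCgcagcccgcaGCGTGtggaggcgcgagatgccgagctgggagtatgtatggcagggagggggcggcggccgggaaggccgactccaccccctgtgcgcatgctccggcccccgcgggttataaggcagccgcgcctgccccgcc
Pfkfb3 (start nearer the 3′ end of the gene), chr2:11502091-11502340, strand -: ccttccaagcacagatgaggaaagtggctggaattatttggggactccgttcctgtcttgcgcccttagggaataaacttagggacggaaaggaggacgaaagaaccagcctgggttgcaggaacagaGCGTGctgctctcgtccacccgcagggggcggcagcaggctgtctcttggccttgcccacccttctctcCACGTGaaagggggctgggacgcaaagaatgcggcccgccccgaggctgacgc
Pfkfb3 (start at the 5′ end of the gene), chr2:11553930-11554179, strand -: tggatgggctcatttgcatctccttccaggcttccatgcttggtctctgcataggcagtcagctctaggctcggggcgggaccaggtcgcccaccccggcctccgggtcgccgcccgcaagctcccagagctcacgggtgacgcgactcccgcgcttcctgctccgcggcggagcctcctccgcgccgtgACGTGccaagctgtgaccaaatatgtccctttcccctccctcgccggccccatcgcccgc
The Slc16a3 window holds the ACGTG core 2 times, while the Slc16a1 window holds an E-box and the GCGTG core on each strand. Of the 35 genes, 34 had a promoter entry in the table, with 48 windows of 250 bases before to 50 after a start. An ACGTG or GCGTG was found in 39 of these 48 windows (81.2%), in 31 genes, against 43.8% of all 32851 windows. The members' windows were also richer in G and C, with a median of 61.0% against 52.7%, and windows of 1 gene can overlap. CACGTG was in 10.4% of member windows and 7.15% of all windows. Neither an NF-kB motif of 10 letters with 1 free position nor an interferon response motif (ISRE) of 10 letters with 2 free positions was found in a member window on either strand, and 0.411% and 3.44% of all windows held them. Of the called genes with an entry, Pfkfb3, Slc16a3, Taldo1 and Slc16a1 had an ACGTG or GCGTG in a window and Tpi1 had none. Such matches describe the letters and do not show binding.

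Of the 5 genes of glucose entry 1 was called, beside 11.1% of all genes tested, so the count says nothing particular about the group. Slc2a3 encodes GLUT3, a high-affinity glucose transporter (Entrez gene 20527, chromosome 6, 122727809 to 122802363 on GRCm38.p6). It was at 20.8 and 40.1 CPM in BFP-negative replicates 1 and 2 and at 77.5 and 81.9 CPM in BFP-positive replicates 1 and 2. The groups did not overlap, and the BFP-negative libraries differed more from each other than the BFP-positive ones. Slc2a3 was 2.61-fold higher (log2 fold change 1.39, SE 0.28, adjusted p = 0.00975), and its log2 value lay between 0.99 and 1.96 when either BFP-negative library was left out, called in both cases. Slc2a1, which encodes the widely expressed transporter GLUT1, was at 62.0 and 62.5 CPM in BFP-negative and 47.5 and 75.9 CPM in BFP-positive libraries. Its BFP-positive values lay on both sides of the BFP-negative ones, with a log2 fold change of -0.01, SE 0.23. The hexokinases, which trap glucose in the cell by phosphorylation, gave log2 fold changes from -0.15 (Hk1, SE 0.51) to 0.17 (Hk3, SE 0.85), and none passed. Hk2, the inducible hexokinase, was at 33.8 and 36.0 against 37.7 and 30.6 CPM.

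Upper glycolysis had 2 calls among 9 genes, in opposite directions. That is 22.2%, beside 11.1% of all genes tested, and with so few genes it says nothing particular about the group. Pfkfb3 makes and removes fructose 2,6-bisphosphate, the strongest activator of phosphofructokinase (Entrez gene 170768, chromosome 2, 11471430 to 11554071). It was at 19.1 and 29.2 CPM in BFP-negative and 63.5 and 59.3 CPM in BFP-positive libraries, with both BFP-positive libraries well above. That was a 2.54-fold rise (log2 fold change 1.35, SE 0.24, adjusted p = 0.00548). Pfkfb4, its relative, overlapped between the groups, at 14.5 and 6.62 against 7.38 and 15.97 CPM. Tpi1, triosephosphate isomerase, which interconverts the triose phosphates that aldolase makes, fell (Entrez gene 21991, chromosome 6, 124810586 to 124814158). Its level was 238 and 229 CPM in BFP-negative and 91.5 and 124 CPM in BFP-positive libraries, a 2.16-fold fall (log2 fold change -1.11, SE 0.17, adjusted p = 0.00217). Tpi1 was called lower with any 1 library left out, with log2 fold changes from -1.35 to -0.91.

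The phosphofructokinases carry out the committed step of glycolysis and work as tetramers of liver, platelet and muscle type subunits. Pfkp, the platelet type, was at 56.7 and 77.2 against 99.6 and 91.5 CPM; on the log2 scale the difference was 0.51 (SE 0.19, adjusted p = 0.118). Pfkl, the liver type, was at 110 and 155 against 91.7 and 106 CPM; on the log2 scale the difference was -0.42 (SE 0.19, adjusted p = 0.196). Neither passed although the groups did not overlap. With BFP-negative replicate 1 left out, the log2 fold changes were 0.31 for Pfkp and -0.64 for Pfkl. With BFP-negative replicate 2 left out, they were 0.77 for Pfkp and -0.14 for Pfkl. Exons of Pfkp share 748 bases with Pitrm1 on the opposite strand, and the libraries do not mark strand. Aldoa, the main aldolase, was at 1376 and 1616 against 1152 and 1239 CPM; on the log2 scale the difference was -0.32 (SE 0.12, adjusted p = 0.113). Its groups did not overlap. Aldoa was called lower with scaling to library totals alone (adjusted p = 0.0479) and with a replicate block in the fit (adjusted p = 0.0108). Its log2 fold change was -0.43 with BFP-negative replicate 1 left out and -0.18 with BFP-negative replicate 2 left out. Gpi1, glucose 6-phosphate isomerase, Pfkm, the muscle type subunit, and Aldoc, the brain type aldolase, gave log2 fold changes of 0.13, -0.49 and 0.44 and did not pass.

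None of the 5 tested genes of lower glycolysis passed, beside 11.1% of all genes tested. Pkm, pyruvate kinase, which makes pyruvate and ATP, was the most abundant of them per length. It was at 661 and 809 CPM in BFP-negative and 512 and 613 CPM in BFP-positive libraries (log2 fold change -0.39, SE 0.14, adjusted p = 0.114), with no overlap. It was called lower with a replicate block in the fit (adjusted p = 0.00695). Its log2 fold change was -0.52 with BFP-negative replicate 1 left out and -0.21 with BFP-negative replicate 2 left out. Eno1, the main enolase, was nearly level at 149 and 157 against 150 and 148 CPM (log2 fold change -0.04, SE 0.14). Gapdh, Pgk1 and Pgam1, the dehydrogenase, kinase and mutase that act before it, gave log2 fold changes of 0.30, -0.45 and -0.24 with SE of 0.34, 0.41 and 0.25.

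Gapdh, Pgk1, Eno1 and Pgam1 share much of their sequence with other genes, processed pseudogenes among them. In GENCODE M21 transcripts, 78% of the 100-base windows of Gapdh occurred letter for letter in another gene, 67.0% of those of Pgk1, 59.0% of those of Eno1 and 39.7% of those of Pgam1. Eno1b, an annotated near-copy, shared the most windows with Eno1. Per length, Gapdh stood at a mean of 11.5 RPKM and Pgk1 at 4.49 RPKM, beside 976 RPKM of Ldha and 250 RPKM of Pkm, with 1.28% and 9.82% of windows shared. The sources used here do not say how reads that fit several places were treated, so the levels of Gapdh, Pgk1, Eno1 and Pgam1 are uncertain. Of the called members, Slc2a3, Pfkfb3, Slc16a1, Slc16a3 and Taldo1 shared no 100-base window with another gene, and Tpi1 shared 0.796%. At 50 bases, 12.4% of the windows of Taldo1 and 7.51% of those of Tpi1 were shared.

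**Figure D2:**
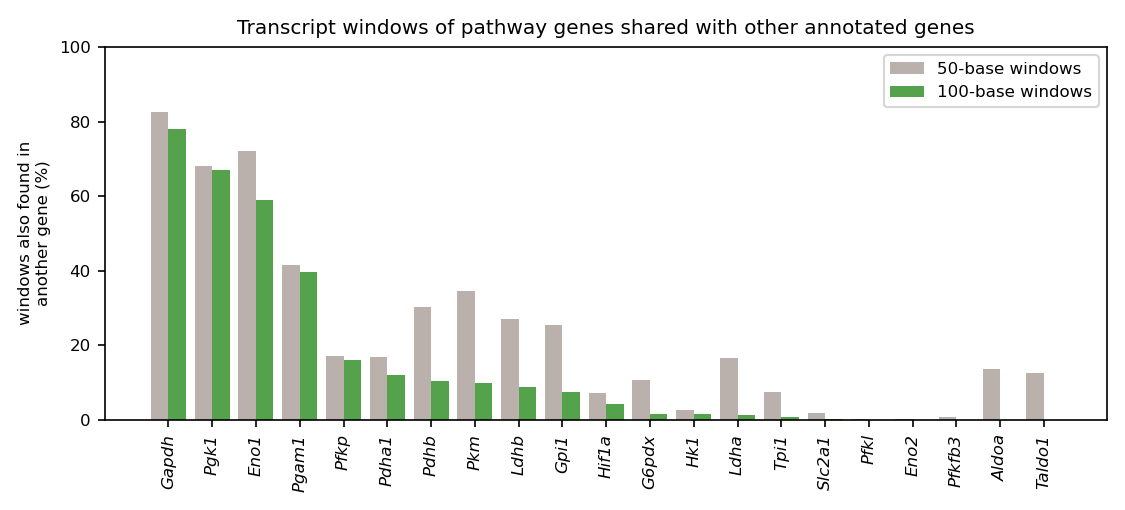
Share of the windows of each member's longest RefSeq-paired transcript that occur letter for letter in a GENCODE M21 transcript of another gene, for windows of 50 bases (grey) and 100 bases (green); members with no shared window are left out. Gapdh, Pgk1, Eno1 and Pgam1 stand apart, with 39.7% to 78% of their 100-base windows shared.

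Among the 4 lactate genes, the 2 transporters were called in opposite directions. That is 50%, beside 11.1% of all genes tested, and with so few genes it says nothing particular about the group. Slc16a3 encodes MCT4, a monocarboxylate transporter known for lactate export from glycolytic cells (Entrez gene 80879, chromosome 11, 120948484 to 120959000). It had 7 and 23 counts in BFP-negative and 139 and 83 counts in BFP-positive libraries, or 0.562 and 1.81 against 11.9 and 6.83 CPM. The groups were apart, though the libraries within each differed. Slc16a3 was 7.82-fold higher (log2 fold change 2.97, SE 0.67, adjusted p = 0.0183); the log2 value was 2.37 with BFP-negative replicate 1 left out, 4.06 with replicate 2 of that group left out, and the call was lost without BFP-positive replicate 1 (2.51, adjusted p = 0.125). Slc16a1 encodes MCT1, a transporter that carries lactate and pyruvate in either direction (Entrez gene 20501, chromosome 3, 104638664 to 104658462). It was at 73.6 and 64.2 CPM in BFP-negative and 37.6 and 29.3 CPM in BFP-positive libraries, a 2.06-fold fall (log2 fold change -1.04, SE 0.20, adjusted p = 0.00908). Its adjusted p was 0.0521 with BFP-positive replicate 2 left out. Ldha, the lactate dehydrogenase subunit that favours lactate formation, was the most abundant member per length, at 1771 and 2291 against 1578 and 1897 CPM. Its groups overlapped, and it did not pass (log2 fold change -0.23, SE 0.14, adjusted p = 0.378). With a replicate block in the fit Ldha was called lower (adjusted p = 0.0459). Ldhb, the heart type subunit, had 34 and 33 counts against 15 and 13 and was not called (log2 fold change -1.17, SE 0.81, adjusted p = 0.426).

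Hif1a and the genes of pyruvate dehydrogenase, which converts pyruvate to acetyl-CoA in mitochondria, and of its kinases did not pass. That is 0 of 5 tested genes, beside 11.1% of all genes tested. Hif1a was at 57.5 and 46.3 CPM in BFP-negative and 56.5 and 58.9 CPM in BFP-positive libraries (log2 fold change 0.15, SE 0.19). Its messenger RNA does not report the stability of the protein, by which oxygen is known to control it. Pdk3, a kinase that switches pyruvate dehydrogenase off, was at 95.1 and 113 against 140 and 129 CPM, with no overlap but no call (log2 fold change 0.37, SE 0.16, adjusted p = 0.176). Pdk1, a kinase of the same family and a known Hif1a target, overlapped at 12.9 and 7.49 against 8.93 and 13.4 CPM. Pdhb, a subunit of pyruvate dehydrogenase and the most abundant of these genes per length, was at 112 and 97.0 against 104 and 97.6 CPM, and Pdha1, its partner subunit, gave a log2 fold change of -0.26, SE 0.24. Exons of Pdha1 share 603 bases with Map3k15 on the opposite strand.

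Of the 6 genes of the pentose phosphate pathway 1 was called. That is 16.7%, beside 11.1% of all genes tested, so the count says nothing particular about the group. The called gene was that of transaldolase. Taldo1 encodes this enzyme of the non-oxidative branch (Entrez gene 21351, chromosome 7, 141392160 to 141402976) and was among the 3 most abundant members per length. It was at 764 and 714 CPM in BFP-negative and 1256 and 1140 CPM in BFP-positive libraries. Replicates were close together and the groups far apart, with a 1.62-fold rise (log2 fold change 0.70, SE 0.11, adjusted p = 0.00342) that was called with any 1 library left out. Tkt, transketolase, which acts in the same branch, was at 493 and 607 against 426 and 454 CPM. On the log2 scale the difference was -0.32 (SE 0.13, adjusted p = 0.163). It was -0.46 with BFP-negative replicate 1 left out and -0.15 with BFP-negative replicate 2 left out. Tkt was called lower with a replicate block in the fit (adjusted p = 0.034). The oxidative branch did not pass in any gene. G6pdx, its rate-limiting dehydrogenase, was at 58.3 and 62.7 against 45.3 and 60.8 CPM, and Pgd, the second dehydrogenase, gave a log2 fold change of -0.19, SE 0.17. Pgls, the lactonase between them, gave 0.10, SE 0.15. Rpia, which isomerizes ribose 5-phosphate in the non-oxidative branch, gave -0.53, SE 0.33, and did not pass.

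**Figure D3:**
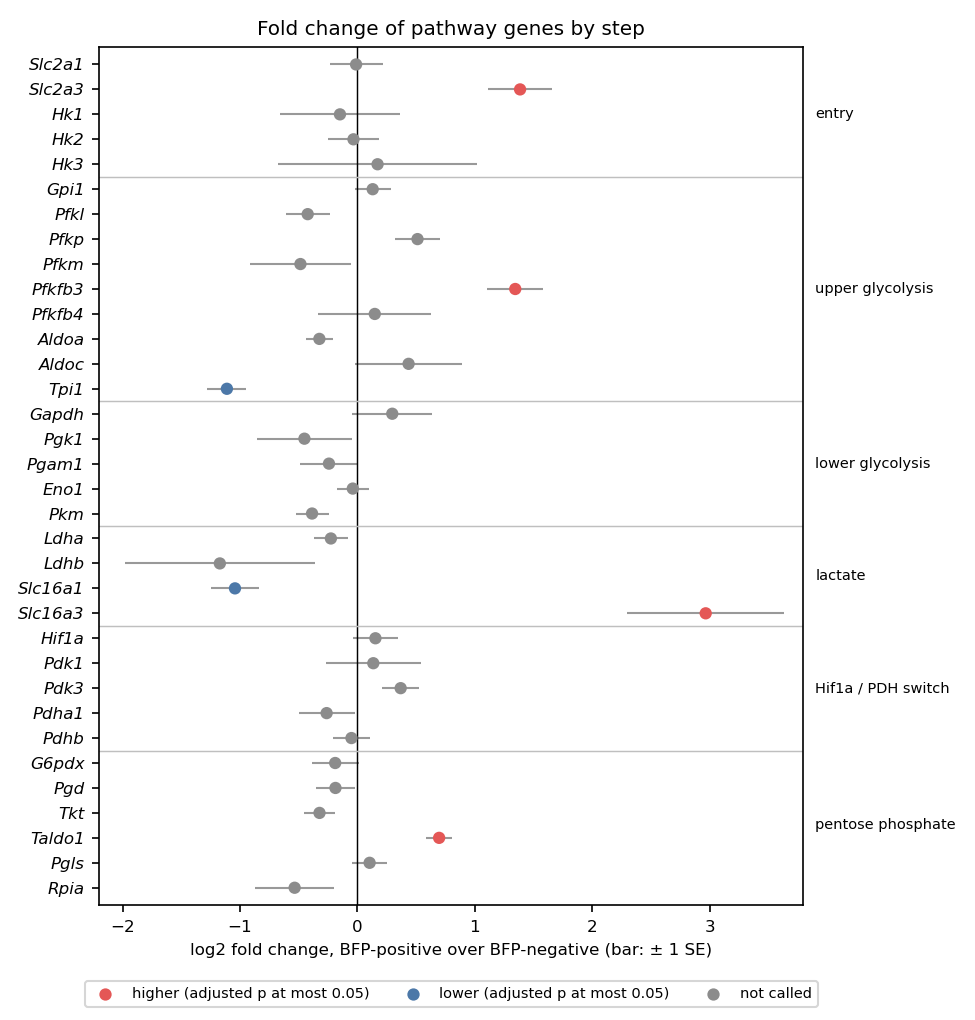
Log2 fold change of each tested member, BFP-positive over BFP-negative, with bars of 1 SE; red and blue points passed an adjusted p of 0.05 and grey ones did not. The called genes run from Slc16a3 at 2.97 to Tpi1 at -1.11, and most enzymes lie close to 0.

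The balance between related genes was read per length from the authors' log2 RPKM values, turned back to RPKM, as a description with no test, since 2 against 2 libraries cannot give an exact permutation p below 0.33. Slc2a3 made up 17.9% and 29.5% of the summed RPKM of Slc2a1 and Slc2a3 in BFP-negative and 51.4% and 41.2% in BFP-positive libraries. The 2 glucose transporter genes were thus at similar levels per length in BFP-positive cells, with Slc2a1 ahead in BFP-negative cells. Slc16a3 was 1.33% and 4.67% of the 2 monocarboxylate transporter genes in BFP-negative and 35.3% and 28.6% in BFP-positive libraries. Slc16a1 remained the larger part in every library. Among the phosphofructokinases, Pfkp was 30.6% and 30.5% in BFP-negative and 48.3% and 43.4% in BFP-positive libraries, and Pfkl was the largest part in all libraries but BFP-positive replicate 1. The hexokinase shares overlapped, Hk2 giving 64.7% and 70.0% against 81.8% and 56.6%. Aldoa, Eno1, Ldha and Pdk3 each gave 95.0% (rounded) or more of their pair in every library, with differences between the group means of -0.54, -0.04, 0.10 and 0.60 percentage points. Eno2, paired with Eno1, had at most 3 counts in a library, so that share could hardly move. Another enolase gene, Eno3, was not in the pair. It was at 18.3 and 16.8 CPM in BFP-negative and 40.3 and 29.1 CPM in BFP-positive libraries.

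**Figure D4:**
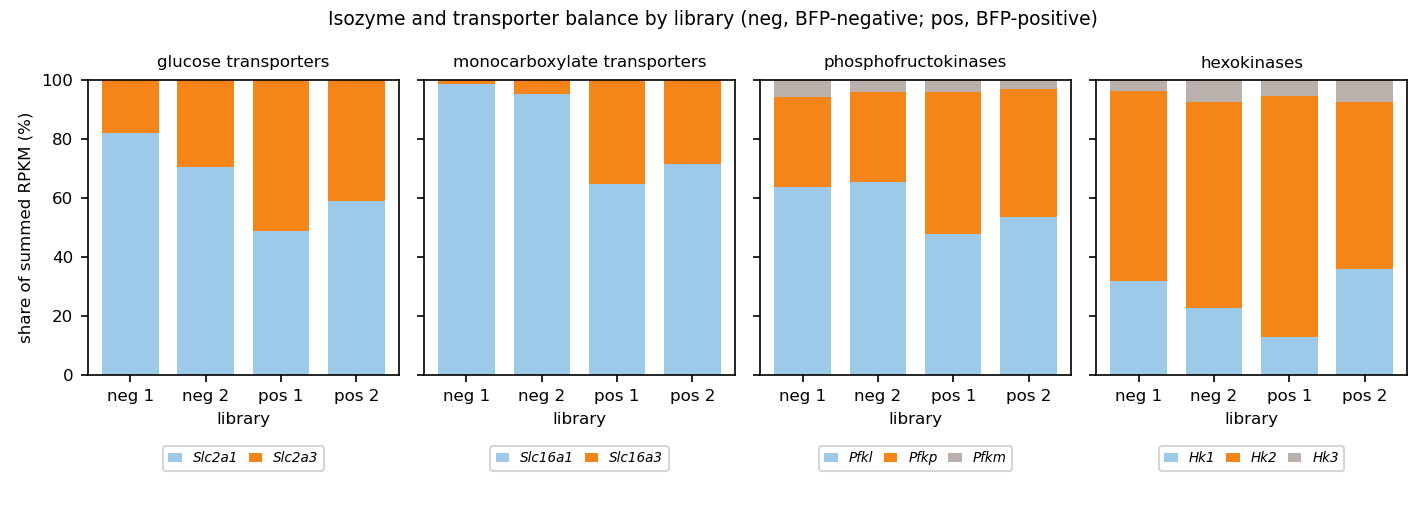
Share of each gene in the summed RPKM of its group in each library, for the glucose transporters, monocarboxylate transporters, phosphofructokinases and hexokinases (stacked bars from 0 to 100%). The orange part (Slc2a3, Slc16a3, Pfkp) is larger in both BFP-positive libraries than in both BFP-negative ones in the first 3 panels, and the hexokinase shares overlap.

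Levels per length spanned a wide range. By mean log2 RPKM over the 4 libraries the order began with Ldha (9.92), Taldo1 (9.52), Aldoa (9.51), Pgls (8.53), Pkm (7.94) and Tkt (7.26) and ended with Ldhb (0.47), Slc16a3 (0.24), Hk3 (-0.90) and Eno2 (-4.78). Taldo1 and Aldoa changed places between the groups, at means of 592 and 837 RPKM in BFP-negative and 917 and 640 RPKM in BFP-positive cells. Of the 6 most abundant members, 3 (Taldo1, Pgls and Tkt) thus belonged to the pentose phosphate pathway. In GENCODE M21, exons of Pgls share 776 bases with Fam129c on the same strand. The longest RefSeq-paired transcript of Pgls shared 0% of its 50-base windows with another gene. Whether the level of Pgls holds reads of Fam129c was not tested. Exons of Pkm share 767 bases with Gm49759 on the same strand, and those of G6pdx share 418 bases with Ikbkg on the opposite strand.

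Of 42 further genes of glycolysis, pyruvate use and the pentose phosphate pathway, 27 were tested, 3 were higher and 1 lower, 14.8% in all, beside 11.1% of all genes tested. Adpgk, an ADP-dependent glucokinase, was 2.02-fold higher (log2 fold change 1.02, SE 0.16, adjusted p = 0.00283). Slc2a6, a lysosomal transporter of the glucose transporter family, was at 295 and 352 against 461 and 524 CPM; on the log2 scale the difference was 0.61 (SE 0.13, adjusted p = 0.0170), and was not called when BFP-negative replicate 1 (adjusted p = 0.0508) or BFP-positive replicate 2 (adjusted p = 0.115) was left out. Eno3, the muscle enolase, was 1.98-fold higher (adjusted p = 0.0355) and was called only in the fits with all libraries or without BFP-positive replicate 2. Pgam2, the muscle phosphoglycerate mutase, fell 1.87-fold, from 126 and 133 to 65.8 and 72.8 CPM; on the log2 scale the difference was -0.90 (SE 0.16, adjusted p = 0.00479). Of 20 other targets or regulators of Hif1a, 18 were tested and 1 (5.56%) was higher, Bhlhe40, a transcription factor, by 2.07-fold (adjusted p = 0.00172). Of 20 tested genes of the tricarboxylic acid cycle, 1 (5%) was higher, the fumarase gene Fh1, at 178 and 160 against 286 and 345 CPM; on the log2 scale the difference was 0.90 (SE 0.14, adjusted p = 0.00317). Median log2 fold changes of the 3 lists were -0.17, -0.21 and 0.02, beside -0.02 over all genes tested.

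**Figure D5:**
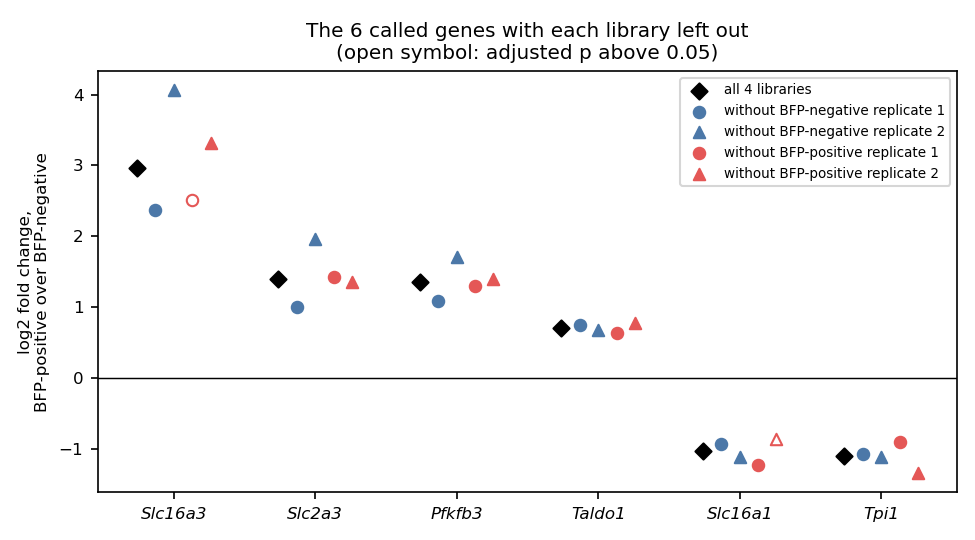
Log2 fold change of the 6 called members with all 4 libraries (black) and with each library left out (blue, a BFP-negative library; red, a BFP-positive one); open symbols have an adjusted p above 0.05. Slc16a3 moves most, from 2.37 to 4.06, and loses its call without BFP-positive replicate 1, and Slc16a1 loses it without BFP-positive replicate 2.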

How the data were processed

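RNA was measured in 4 libraries; the labels' protocols name a SMART-Seq kit, of a type that does not mark strand. The authors deposited raw read counts per gene and, for each library, log2 RPKM values (reads scaled for gene length and library size), per the file headers. Subread, featureCounts and limma, with GRCm38 and mm10, are named in the submitters' processing notes, without versions. Genes were kept by filterByExpr (minimum count 10, minimum total 15), leaving 11706 of 27179 genes. BFP-positive was compared with BFP-negative in edgeR 4.0.16 (R 4.3.3) with TMM scaling (factors 0.973 to 1.04), the quasi-likelihood test, group as the only term and 2 residual degrees of freedom; the coefficient of variation was 24.7%. The SE is the size of the log2 fold change divided by the square root of F. Replicates were separate libraries, differing by a chi-square of 18.9 (BFP-negative) and 14.9 (BFP-positive) for each degree of freedom. Alternatives used DESeq2 1.42.0, limma 3.58.1 (voom), other scalings and filters, a replicate block and leaving out each library, and the steps were tested on simulated data.

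The members and lists were chosen with earlier results of these data known. All 35 members are named. Values in every library are given for members that passed, for those with an unadjusted p below 0.05 and for the most abundant of each role; some others were added after their values were seen. Of the other lists, up to 4 genes that passed are named. Positions and promoters are RefSeq's for GRCm38.p6, and shared windows and exon overlaps were computed on GENCODE M21. Limits from counts hold for counting error alone, since reads without molecular identifiers can be PCR copies of 1 molecule.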

Additional observations from a re-analysis of the deposited data

How the results depend on the processing

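The count of members called higher was 4 under each of the 7 alternatives that kept all libraries, and the same 4 genes were called. The count called lower was 2, and 3 with library totals alone. The labels give replicate numbers 1 and 2 in both groups and a code shared by each number, but do not say what the code marks. The difference between replicates 1 and 2 was taken for each tested gene in each group. Across the 11706 genes, these differences correlated at 0.0596 between the groups. With only 2 possible pairs this does not settle whether the libraries are paired, and the comparison was made without the block. With the replicate block 6 members and 760 of all genes were lower, against 2 and 411 without it; the added members were Aldoa (adjusted p = 0.0108), Ldha (0.0459), Pkm (0.00695) and Tkt (0.034), from edgeR's quasi-likelihood test. Leaving out 1 library (where a group has 1 library left, it is assumed to vary like the other group) gave 3 to 5 members higher and 1 to 6 lower, and 559 to 921 genes higher and 245 to 408 lower over all genes. Single libraries set both ends: BFP-negative replicate 1 gave 6 members lower when left out, and BFP-positive replicate 2 gave 1 member lower and 559 genes higher. Of 287 values of named genes under alternatives with all libraries, 0 changed direction, 0 lost a call and 5 gained one.

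For 12 members that were not called, the sign of the log2 fold change turned with 1 library left out, so no direction can be given. The ranges were -0.38 to 0.29 for Slc2a1, -1.25 to 0.47 for Hk1, -0.19 to 0.11 for Hk2, -0.24 to 0.79 for Hk3, -0.00257 to 0.27 for Gpi1, -0.51 to 0.82 for Pfkfb4, -0.12 to 1.38 for Aldoc, -0.0693 to 0.0181 for Eno1, -0.19 to 0.58 for Pdk1, -0.13 to 0.0641 for Pdhb, -0.41 to 0.00813 for G6pdx and -0.0478 to 0.30 for Pgls.

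The rise of the share of Slc16a3 among the monocarboxylate transporters, 29.0 percentage points from the deposited RPKM, was 20.1 from CPM per kilobase of the longest RefSeq-paired transcript, where gene lengths differ. With 1 library left out it was 25.6 to 32.3 points. That of Slc2a3 was 16.9 to 28.4, of Pfkp 12.8 to 17.7, of Hk2 -10.8 to 14.5, of Pdk3 -0.64 to 1.84, of Aldoa -0.84 to -0.25, of Eno1 -0.08 to -0.01 and of Ldha 0.07 to 0.13. The SE was widest at low counts, 0.67 for Slc16a3, 0.81 for Ldhb and 0.85 for Hk3.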
